A study of Homo sapiens with 12 samples.

Results

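The genes described here are NOTCH1, NOTCH2 and NOTCH3 (receptors), JAG1 and JAG2 (ligands) and HES1 and HEY1 (targets) of the Notch pathway, chosen by name as 7 of the 24331 features of a table of expression values. RNA-sequencing was done in MDA-MB-231 cells, a human triple-negative breast cancer cell line, that were wild type (WT) or had lost part of the core-regulatory element (CRE) of ETS1 (ΔCRE cells, labelled KO). CRISPR/Cas9 with a pair of guide RNAs removed the NFAT and NF-κB binding sites of that element, and clones with the deletion were screened, although the number of clones behind the libraries is not stated. Cells of each genotype were unstimulated (0 h) or stimulated with PMA, a phorbol ester that activates protein kinase C, together with Ionomycin, a calcium ionophore, for 6 or 24 h. Each of the 6 groups has 2 libraries, which the study's methods call biological replicates. The library labelled ΔCRE 0 h replicate 1 stands apart from the other 11 and is shown separately throughout, so that 1 library, replicate 2, represents ΔCRE cells at 0 h.

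Notch receptors are single-pass membrane proteins that are activated by ligands of the Jagged and Delta-like families on neighbouring cells. Binding exposes the receptor to cleavage by ADAM metalloproteases and then by the γ-secretase complex, which frees the intracellular domain to enter the nucleus. There it joins the DNA-binding protein RBPJ and a Mastermind coactivator and switches on targets such as HES1 and HEY1, which encode transcriptional repressors of the basic helix-loop-helix type. In breast cancer, Notch signalling is known for roles in cell fate, growth and invasion, and JAG1 is the ligand most often discussed in triple-negative tumours.

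HES1 had the largest log2 fold change among the 4 tested genes on stimulation of WT cells. The 250 bases upstream of its annotated start are shown because the letters of the RBPJ core used here occur in them. The sequence is that of RefSeq (promoter table of GRCh38.p14), and it has a single exact match in GRCh37, the build of the deposited files, at chr3:193853687-193853936 on the forward strand. Capitals mark each run of the RBPJ core TGGGAA. Other forms of the RBPJ site were not searched for and are not marked.
HES1: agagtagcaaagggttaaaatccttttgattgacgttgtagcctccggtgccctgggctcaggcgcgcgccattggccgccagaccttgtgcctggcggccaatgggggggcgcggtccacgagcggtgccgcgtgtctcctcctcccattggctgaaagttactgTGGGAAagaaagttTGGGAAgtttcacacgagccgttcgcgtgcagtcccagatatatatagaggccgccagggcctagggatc
Both matches are on the strand of the gene, at positions −84 to −79 and −70 to −65 from the start. Windows of 300 bases (250 before and 50 after the start) were searched on both strands for TGGGAA (RBPJ), TGANTCA (AP-1), CCGGAA (ETS), TGGAAA (NFAT) and GGANTTTCC (NF-κB) in the 6 genes with an entry used here (not HEY1). The 2 RBPJ matches of HES1, which overlap no other motif, were the only matches in these 6 windows. Of all 35116 windows in the table, 24.0% held TGGGAA, 7.71% TGANTCA, 17.2% CCGGAA, 20.8% TGGAAA and 1.64% GGANTTTCC. A match is a run of letters and not a measured binding site, and a window without these letters says nothing of the factor.

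Expression is given as FPKM, fragments scaled to the length of the transcript and to the number of mapped fragments, so that levels can be compared between genes per length. FPKM summed to 566255 to 651080 in 11 libraries and to 1423335 in ΔCRE 0 h replicate 1. All 5 markers of MDA-MB-231 cells (VIM, CD44, KRT18, ANXA1 and CAV1) were at 1 FPKM or more in all 11 libraries. They were also expressed in ΔCRE 0 h replicate 1, summing to 4487 FPKM there and to 2566 to 4097 FPKM in the 11. KRT18 made up 2678 FPKM of that sum, against 347 to 550 FPKM in the 11. VIM (1200 FPKM) and ANXA1 (420 FPKM) lay below the lowest of the 11 (1543 and 426 FPKM), and CD44 and CAV1 were within the range. Of 5 markers of hormone receptor positive or epithelial breast, expected low, 2 (GATA3 and EPCAM) were at 1 FPKM or more in all 11. These 5 summed to 3.97 to 6.22 FPKM in the 11 and to 1193 FPKM in ΔCRE 0 h replicate 1. In that library EPCAM was 1139 FPKM and CDH1 52.3 FPKM, whereas ESR1 was listed at 0 and PGR at 0.0128 FPKM. GATA3, at 2.38 FPKM there, was within the range of the 11 (1.76 to 3.32 FPKM). A list of 7 markers of gut epithelium was chosen from earlier results on the library that stands apart. It summed to at most 0.315 FPKM in the 11 but to 9905 FPKM in ΔCRE 0 h replicate 1. Pearson's r of log2(FPKM + 1) between replicates, across genes of a pair of libraries, was 0.978 to 0.984 in 5 groups and 0.867 at ΔCRE 0 h. ETS1, the targeted gene, was lower in ΔCRE than in WT cells with log2 fold changes of −0.51, −1.17 and −0.33 at 0, 6 and 24 h (limma, adjusted p = 0.0132, 2.0e-05 and 0.0153), and every ΔCRE library lay below both WT libraries of its time. The ETS1 call at 24 h was lost in a separate fit (adjusted p = 0.108, limma) and without WT 24 h replicate 2 (0.102), ΔCRE 24 h replicate 1 (0.0919) or ΔCRE 24 h replicate 2 (0.0667), that at 0 h in a separate fit (0.369) and without WT 0 h replicate 1 (0.0541), and all 3 with ΔCRE 0 h replicate 1 included (0.272 to 1).

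Differences were tested with limma on log2(FPKM + 1) over the 11256 features with a mean of at least 1 FPKM over the 11 libraries, with p-values adjusted by the Benjamini-Hochberg method over all of them and called at an adjusted p under 0.05. A log2 fold change on this scale is smaller than that of the FPKM values for weakly expressed genes. Where libraries of different groups are said not to overlap, the share of all features that separate in this way was not computed. NOTCH1, NOTCH2, JAG1 and HES1 passed the filter and were tested. NOTCH3, JAG2 and HEY1 did not, with means of 0.248, 0.566 and 0.624 FPKM. Ordered by the mean over 11 libraries, JAG1 was the highest of the 7 at 41.4 FPKM, at the 90.7 percentile of all features, followed by NOTCH2 at 15.3 FPKM, HES1 at 13.3 FPKM and NOTCH1 at 4.98 FPKM. HES1 ranged more widely over the libraries than NOTCH2, so that its place in this order depended on the time of stimulation.

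NOTCH1, a receptor whose mutation drives T cell leukaemia, rose on stimulation of WT cells and was lower in ΔCRE than in WT cells. It lies on the reverse strand of chromosome 9 from 139388885 to 139440500 (GRCh37), where a long non-coding RNA overlaps it on the opposite strand. In WT cells it was 3.85 and 4.09 FPKM at 0 h, 7.99 and 7.03 FPKM at 6 h, and 5.92 and 5.69 FPKM at 24 h. ΔCRE cells had 2.996 FPKM at 0 h, 4.74 and 4.41 FPKM at 6 h, and 3.96 and 4.06 FPKM at 24 h. The WT libraries at 6 h were the highest of all and those at 24 h came next, the ΔCRE libraries at 6 h followed without overlap, the ΔCRE libraries at 24 h fell between the WT libraries at 0 h, and ΔCRE 0 h was the lowest. In WT cells the rise was 0.77 on the log2 scale at 6 h (standard error 0.077, adjusted p = 9.6e-05, limma) and still 0.45 after 24 h with an adjusted p of 0.0013 (limma), and between 6 and 24 h the level fell by 0.32 (adjusted p = 0.0094, limma). This fall did not pass when rescaled to TPM (adjusted p = 0.0738, limma) or without WT 6 h replicate 1 (0.0705) or WT 24 h replicate 2 (0.0553). In ΔCRE cells the log2 difference between 24 and 6 h was −0.15 with an adjusted p of 0.128 (limma), which became a call under quantile normalization (−0.22, adjusted p = 0.0409), and 6 h stood at 153% of the single library at 0 h, which was not tested.

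Between genotypes, NOTCH1 in ΔCRE cells was 60.9% of the WT mean at 6 h (4.57 ± 0.232 against 7.51 ± 0.680 FPKM, SD, n = 2) and 69.0% at 24 h (4.01 ± 0.0707 against 5.80 ± 0.159 FPKM, SD, n = 2). The log2 fold changes were −0.61 at 6 h (standard error 0.077, adjusted p = 0.0028, limma) and −0.44 at 24 h (standard error 0.077, adjusted p = 0.0142, limma). At 0 h the single ΔCRE library was at 75.5% of WT, a log2 fold change of −0.31 that did not pass (adjusted p = 0.167, limma). The call at 24 h was lost without WT 24 h replicate 1 (adjusted p = 0.116, limma), WT 24 h replicate 2 (0.0707), ΔCRE 24 h replicate 1 (0.0796) or ΔCRE 24 h replicate 2 (0.0863) and in a separate fit of that time (0.0691), with log2 fold changes between −0.47 and −0.42. Levels in bulk RNA do not tell fewer cells with a transcript from less transcript per cell.

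The neighbours of NOTCH1 on chromosome 9 were lower in ΔCRE cells as well. Of the 79 other tested features centred within 5 Mb of it, 75 had a log2 fold change below 0 between ΔCRE and WT cells at 6 h, with a median of −0.25. Of these 79, 22 were called lower and 0 higher by limma (0 higher also at an unadjusted p under 0.05), where 6.22% of all features were called lower and 3.62% higher. At 24 h 73 of the 79 were below 0, with a median of −0.33, and 9 had a lower fold change than NOTCH1. At that time 29 were called lower and 1 higher, where 3.97% of all features were called lower and 2.35% higher. At 6 h NOTCH1 lay further out, with 3 of the 79 below its value. The medians of all tested features in the same comparisons were 0.013 and 0.012. At 0 h, with 1 ΔCRE library, 72 of the 79 were below 0, with a median of −0.16 against 0.0057 over all features. Around NOTCH2, JAG1 and HES1 the medians for the same distance lay between −0.021 and 0.089 at 6 and 24 h, over 20, 14 and 41 features. Limma called 3, 1 and 2 of these lower and 0, 1 and 3 higher at 6 h. At 24 h it called 2, 0 and 1 lower and 0 higher around each (2, 2 and 0 higher at an unadjusted p under 0.05). The part of the segment in the difference of NOTCH1 was not tested.

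NOTCH2, the most abundant of the 3 receptors, was not called between genotypes and fell between 6 and 24 h. It lies on the reverse strand of chromosome 1 from 120454176 to 120643366 (GRCh37). In WT cells it was 14.7 and 15.6 FPKM at 0 h, 16.5 and 17.4 FPKM at 6 h, and 12.3 and 14.1 FPKM at 24 h. ΔCRE cells had 16.0 FPKM at 0 h, 16.9 and 16.6 FPKM at 6 h, and 13.4 and 14.3 FPKM at 24 h. The libraries of both genotypes were highest at 6 h and lowest at 24 h, and WT and ΔCRE libraries overlapped at both of these times. The level fell between 6 and 24 h by 0.34 on the log2 scale in WT cells (adjusted p = 0.0058, limma) and by 0.26 in ΔCRE cells (adjusted p = 0.0186, limma). Rescaled to TPM, these falls did not pass (adjusted p = 0.0727 and 0.171, limma), and the call in ΔCRE cells was also lost without ΔCRE 6 h replicate 1 (0.0733), ΔCRE 6 h replicate 2 (0.0604) or ΔCRE 24 h replicate 1 (0.103). Against 0 h, the log2 differences in WT cells were 0.15 at 6 h and −0.19 at 24 h (adjusted p = 0.125 and 0.0596, limma). The value at 24 h became a call without WT 24 h replicate 2 (−0.28, adjusted p = 0.0220, limma). Between genotypes the log2 difference was −0.014 at 6 h with a 95% interval of −0.18 to 0.15, and 0.067 at 24 h with an interval of −0.10 to 0.24 (adjusted p = 0.942 and 0.663, limma). NOTCH2 has a near-identical partial copy, NOTCH2NL, listed at 4.10 to 4.91 FPKM in the 11 libraries, so the division of reads between these genes is uncertain.

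NOTCH3, a receptor known from smooth muscle of vessels, was near the bottom of the measurable range. It was between 0.0940 and 0.427 FPKM in the 11 libraries, with 0.130 ± 0.0510 FPKM in WT cells at 0 h and 0.389 ± 0.0533 FPKM in ΔCRE cells at 24 h (SD, n = 2). The ΔCRE libraries at 24 h (0.427 and 0.352 FPKM) lay above the WT libraries at that time (0.287 and 0.154 FPKM), and the genotypes overlapped at 6 h. With no filter on low values, none of the 8 comparisons of NOTCH3 passed the adjusted threshold (lowest adjusted p = 0.255, limma). NOTCH4 shares a feature of the table with another gene and was not used.

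JAG1, the ligand with the highest level among the canonical ligands in these cells, rose on stimulation and was higher in ΔCRE than in WT cells at each time. It lies on the reverse strand of chromosome 20 from 10618332 to 10654647 (GRCh37), with a long non-coding RNA on the opposite strand. In WT cells it was 25.6 and 24.8 FPKM at 0 h, 41.5 and 41.4 FPKM at 6 h, and 34.9 and 36.2 FPKM at 24 h. ΔCRE cells had 33.1 FPKM at 0 h, 51.6 and 48.0 FPKM at 6 h, and 58.7 and 59.1 FPKM at 24 h. No 2 groups overlapped, although the share of all features of which this holds was not computed. The WT libraries peaked at 6 h whereas the ΔCRE libraries were highest at 24 h. Stimulated WT cells gave log2 fold changes of 0.70 and 0.48 at 6 and 24 h (both with a standard error of 0.053, adjusted p = 2.1e-05 and 1.3e-04, limma).

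Between 6 and 24 h, JAG1 fell by 0.22 on the log2 scale in WT cells (adjusted p = 0.0103, limma) and rose by 0.24 in ΔCRE cells (adjusted p = 0.0060, limma). The fall in WT cells did not pass when the libraries were rescaled to TPM (adjusted p = 0.150, limma), with quantile normalization (0.0845), or without WT 6 h replicate 1 (0.0501) or WT 24 h replicate 1 (0.0686). Between genotypes, JAG1 in ΔCRE cells stood at 131%, 120% and 166% of the WT level at 0, 6 and 24 h, the last as 58.9 ± 0.218 against 35.5 ± 0.896 FPKM (SD, n = 2). The log2 fold change at 24 h was 0.71 (standard error 0.053, adjusted p = 2.7e-04, limma), and those at 6 h and 0 h were 0.26 and 0.38 (adjusted p = 0.0195 and 0.0295, limma). The difference between the genotype effects at 24 and 6 h was 0.45 (95% interval 0.28 to 0.63), with an unadjusted p of 2.4e-04 and an adjusted p of 0.0887 (limma), so it did not pass the correction. Across the alternatives tried its adjusted p ranged from 0.0557 to 1. The call at 24 h held in each of the 19 alternatives other than the fit of all 12 libraries. The call at 6 h was lost without WT 6 h replicate 1 (adjusted p = 0.112, limma), WT 6 h replicate 2 (0.102) or ΔCRE 6 h replicate 1 (0.0873) and in a separate fit of that time (0.0850). The call at 0 h was lost on leaving out any 1 of the 6 WT libraries or either ΔCRE 24 h library (adjusted p between 0.0565 and 0.0894, limma) and in a separate fit (0.497).

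JAG2, the other Jagged ligand, was between 0.178 and 0.850 FPKM in the 11 libraries. In WT cells it was 0.570 and 0.372 FPKM at 0 h, 0.178 and 0.379 FPKM at 6 h, and 0.848 and 0.830 FPKM at 24 h. ΔCRE cells had 0.764 FPKM at 0 h, 0.254 and 0.375 FPKM at 6 h, and 0.850 and 0.811 FPKM at 24 h. The libraries at 24 h were the highest and those at 6 h the lowest but for an overlap with WT 0 h, and the genotypes overlapped at 6 and 24 h. JAG2 was not tested with the filter on low values. Without it, the level at 24 h was above that at 6 h by 0.53 in WT cells and 0.48 in ΔCRE cells on the log2 scale (adjusted p = 0.0059 and 0.0081, limma) and above that at 0 h by 0.33 in WT cells (adjusted p = 0.0329, limma). The Delta-like ligands DLL1, DLL3 and DLL4 had means of 0.0671, 0.0218 and 0.251 FPKM.

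HES1, a repressor of differentiation and the best known Notch target, fell on stimulation in both genotypes. It lies on the forward strand of chromosome 3 from 193853937 to 193856521 (GRCh37), overlapping no other gene. In WT cells it was 25.8 and 28.3 FPKM at 0 h, 5.23 and 5.86 FPKM at 6 h, and 7.23 and 6.76 FPKM at 24 h. ΔCRE cells had 35.1 FPKM at 0 h, 6.17 and 6.58 FPKM at 6 h, and 10.4 and 8.78 FPKM at 24 h. No 2 groups overlapped, with the unstimulated libraries far above the rest and WT 6 h the lowest. WT cells kept 20.5% of the 0 h level at 6 h and 25.9% at 24 h, and ΔCRE cells 18.2% and 27.4% of their single 0 h library. Stimulated WT cells gave log2 fold changes of −2.10 and −1.81 at 6 and 24 h (both with a standard error of 0.092, adjusted p = 8.2e-07 and 1.8e-06, limma), and these calls held in all 20 alternatives. Both comparisons share the WT 0 h libraries. None of the 41 tested features centred within 5 Mb of HES1 had a lower log2 fold change at 6 h than HES1, and their median was 0.039.

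From 6 to 24 h HES1 rose by 0.29 on the log2 scale in WT cells (adjusted p = 0.0317, limma) and by 0.52 in ΔCRE cells (adjusted p = 0.0020, limma). The rise in WT cells did not pass without WT 6 h replicate 1 (adjusted p = 0.175, limma), WT 24 h replicate 1 (0.152) or WT 24 h replicate 2 (0.0635), or with no filter (0.0573). Between genotypes, the ΔCRE libraries lay above both WT libraries at each time, at 130%, 115% and 137% of the WT mean at 0, 6 and 24 h. How many of all features separate like this with so few libraries was not computed. The log2 fold changes were 0.37, 0.17 and 0.40, of which the last passed (adjusted p = 0.179, 0.305 and 0.0391, limma). That call is weak, since it was lost in 14 of 20 alternatives, among them the omission of any library other than ΔCRE 0 h replicate 2, with adjusted p values of 0.0511 to 0.185 over those omissions, and the log2 value itself stayed between 0.29 and 0.52.

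HEY1, a target related to HES1 and known from vascular development, was between 0.286 and 1.12 FPKM in the 11 libraries, below the filter on the mean. In WT cells it was 0.603 ± 0.174 FPKM at 0 h, 0.386 ± 0.141 FPKM at 6 h and 0.889 ± 0.325 FPKM at 24 h, and in ΔCRE cells 0.512, 0.545 ± 0.119 and 0.756 ± 0.0765 FPKM (SD, n = 2 except at ΔCRE 0 h). The genotypes overlapped at each time. The libraries at 24 h lay above those at 6 h within each genotype. With no filter on low values, none of its 8 comparisons passed (lowest adjusted p = 0.0520, for WT 24 h against 6 h, limma).

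**Figure D1:**
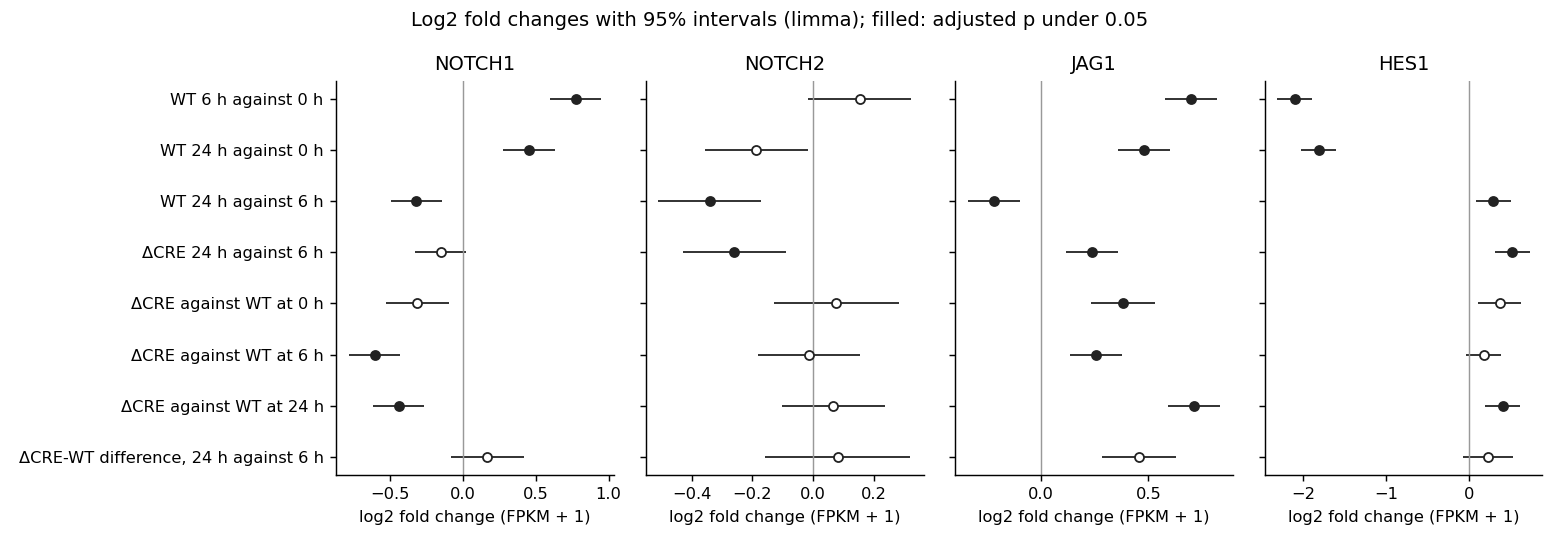
Log2 fold changes of FPKM + 1 (x axis, with its own scale for each gene) with 95% intervals from limma for the 4 tested genes in 8 comparisons (rows), filled where the adjusted p was under 0.05. HES1 stands at −2.10 and −1.81 in stimulated against unstimulated WT cells, while JAG1 lies to the right and NOTCH1 to the left of 0 in each comparison of ΔCRE with WT cells.

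Set beside all tested features, the calls among the 4 tested genes were as follows. In WT cells at 6 h against 0 h, NOTCH1 and JAG1 were called higher and HES1 lower, where 23.3% of all features were called higher and 21.1% lower. At 24 h against 0 h the same genes were called in the same directions, with 26.5% of all features higher and 28.2% lower. At 24 h against 6 h in WT cells, HES1 was called higher and NOTCH1, NOTCH2 and JAG1 lower, against 20.5% and 26.3% of all features. In ΔCRE cells, JAG1 and HES1 were called higher and NOTCH2 lower at 24 h against 6 h, against 22.1% and 27.5% of all features. In these comparisons a call in either direction was thus common over the whole table. Between ΔCRE and WT cells at 6 h, JAG1 was called higher and NOTCH1 lower, where 3.62% of all features were called higher and 6.22% lower. At 24 h, JAG1 and HES1 were called higher and NOTCH1 lower, where 2.35% were higher and 3.97% lower. At 0 h, JAG1 was called higher, where 0.657% were higher and 1.03% lower. In the difference of the genotype effects between 24 and 6 h, 0 of the 4 genes were called by limma (JAG1 at an unadjusted p under 0.05), where 0.142% of all features were called higher and 0.0178% lower.

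The direction of calls over the whole table depended on the scaling. Rescaled to TPM, the median of all features for WT 6 h against 0 h was −0.12 and 35.0% of the called features were higher, against 52.5% as deposited. The same rescaling gave 64.3% against 43.7% for WT 24 h against 6 h, 60.7% against 44.6% for ΔCRE 24 h against 6 h, and 24.7% against 37.2% for ΔCRE against WT cells at 24 h. NOTCH1, JAG1 and HES1 kept direction and call at 6 and 24 h against 0 h in WT cells under TPM and under quantile normalization.

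To place these genes in the pathway, 74 further genes were read in 9 lists, of which 52 passed the filter, 21 fell below it and 1 (NOTCH4) was not used. The machinery downstream of the ligand was expressed: all 9 genes of receptor cleavage, 10 of 11 of the nuclear complex and its coactivators and 12 of 13 corepressors passed. Of all 24331 features, 11256 passed. Of 11 further targets 5 passed (HES4, HES6, MYC, CCND1 and CDKN1A), whereas HES2, HES5, HES7, HEY2, HEYL and NRARP did not. RBPJ, the DNA-binding core of the complex, was between 10.3 and 14.3 FPKM.

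**Figure D2:**
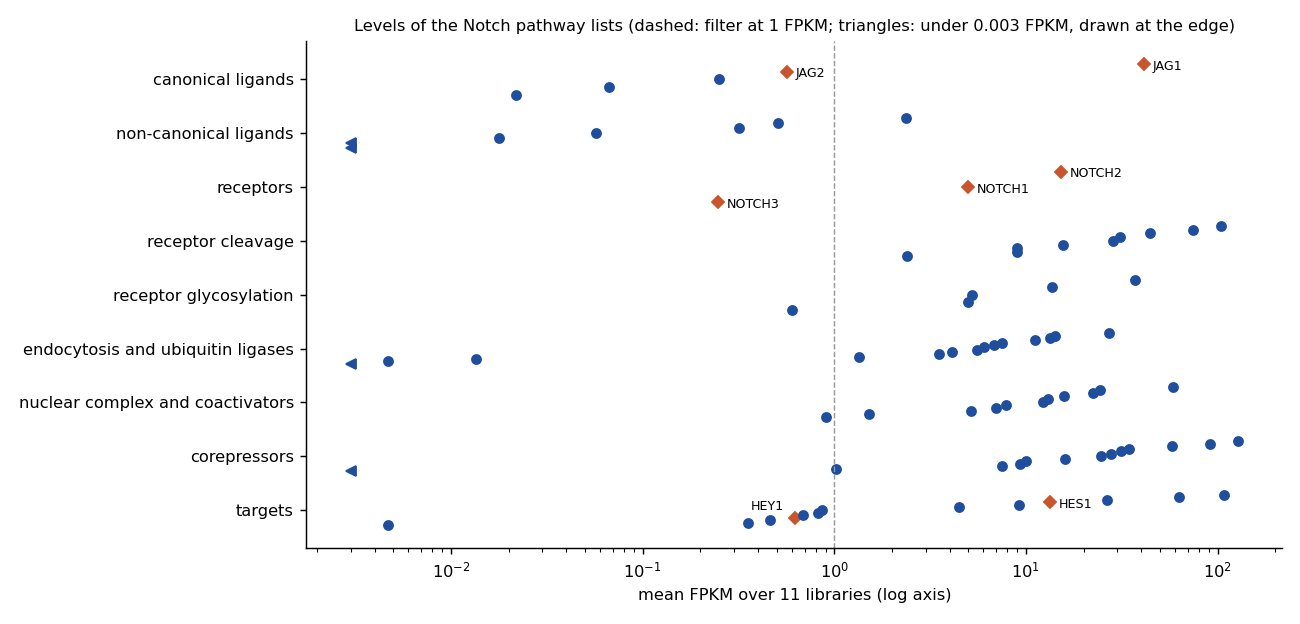
Mean FPKM over 11 libraries (x axis, log scale) of the genes of the 9 Notch pathway lists (rows), with the 7 genes described here as orange diamonds and other genes as blue points. The dashed line is the filter at 1 FPKM, triangles at the left edge are genes under 0.003 FPKM, and JAG1 at 41.4 FPKM lies far to the right of the other canonical ligands.

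On stimulation of WT cells for 6 h, 11 of the 52 genes were called higher (21.2%, against 23.3% of all features) and 14 lower (26.9%, against 21.1%), with a median log2 fold change of 0.053 against −0.0014 over all features. At 24 h, 17 were higher (32.7%, against 26.5% of all features) and 15 lower (28.8%, against 28.2%), with a median of −0.020, equal to that of all features. Of the 9 genes of receptor cleavage, 2 were called higher and 1 lower after 6 h (all features 23.3% and 21.1%), and after 24 h these numbers were 5 and 1 (all features 26.5% and 28.2%). ADAM17, a protease that cleaves ligand-bound Notch and other surface proteins, went from 10.7 FPKM at 0 h to 17.7 FPKM at 6 h and 15.8 FPKM at 24 h in WT cells (log2 fold change 0.68 and 0.52). PSEN2, a catalytic subunit of γ-secretase, was higher at 24 h (0.53), and APH1B, a scaffold subunit of the same complex, was lower at 6 h (−0.56), a call lost without WT 0 h replicate 2 (adjusted p = 0.0801, limma) or WT 6 h replicate 1 (0.0592).

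All 4 tested glycosyltransferases of the receptors were called at 6 h, 1 higher and 3 lower, where 23.3% of all features were higher and 21.1% lower. LFNG, a Fringe enzyme that extends sugars on Notch and shifts its choice of ligand, fell by 0.72 on the log2 scale at 6 h, from 7.15 to 4.01 FPKM, and POGLUT1, which adds glucose to the receptor, fell by 0.64, from 6.67 to 3.93 FPKM. RFNG, another Fringe enzyme, rose by 0.60 at 24 h, from 10.7 to 16.7 FPKM. Among genes of endocytosis and ubiquitin ligases, 4 of 11 were called higher and 2 lower after 6 h, and 5 and 2 after 24 h, beside the same shares of all features (23.3% and 21.1%, then 26.5% and 28.2%). NUMB, an inhibitor of Notch that acts through receptor endocytosis, rose from 19.1 to 30.3 FPKM at 6 h and 31.4 FPKM at 24 h (log2 fold change 0.64 and 0.69), and its relative NUMBL rose by 0.66 at 6 h. MIB1, the ligase that prompts ligand uptake in the sending cell, fell by 0.76 at 24 h, from 5.68 to 2.93 FPKM, and NEURL1B, a further ligase of ligands, fell by 0.55 at 6 h.

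In the nuclear complex, 1 of 10 genes was called higher and 4 lower after 6 h, against 23.3% and 21.1% of all features. After 24 h, against 26.5% and 28.2% of all features, limma called 0 higher and 4 lower (the same numbers at an unadjusted p under 0.05). The acetyltransferases KAT2B and EP300 fell by 0.72 at 6 h and by 0.48 at 24 h, respectively. Of 12 corepressors, 1 was called higher and 4 lower after 6 h, and 3 and 4 after 24 h, against these same shares. CTBP2 rose by 0.67 at 6 h, from 20.5 to 33.3 FPKM, whereas TLE3 and HDAC1 fell by 0.68 and 0.50 at 24 h. Of the 5 tested targets other than HES1, CDKN1A, the cell cycle inhibitor p21, rose from 12.4 FPKM to 126.7 FPKM at 6 h and 48.0 FPKM at 24 h (log2 fold change 3.26 and 1.87). MYC, a growth regulator with many inputs besides Notch, fell by 0.87 at 24 h, from 30.8 to 16.3 FPKM. The other calls among targets, named after their values were seen, were CCND1, higher by 0.58 at 6 h and lower by 0.24 at 24 h, and HES6, higher by 0.46 at 24 h. The CCND1 call at 24 h was lost under quantile normalization (adjusted p = 0.0821, limma) and without WT 0 h replicate 2 (0.107) or WT 24 h replicate 2 (0.106), and that of HES6 without WT 0 h replicate 2 (0.133), WT 24 h replicate 1 (0.0870) or WT 24 h replicate 2 (0.0577). Among the targets that passed the filter, HES1 was the gene with the largest fall. With all 12 libraries in the fit, 3 genes were higher and 2 lower at 6 h and 3 and 3 at 24 h.

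Between genotypes few of the 52 further pathway genes that passed the filter were called. The 21 genes under the filter were not part of these counts. At 6 h, 4 of 52 were lower (7.69%, against 6.22% of all features) and 0 higher by limma's adjusted p (10 lower and 6 higher at an unadjusted p under 0.05), with a median log2 fold change of −0.0044. MAML2, a Mastermind coactivator, was 1.43 FPKM in ΔCRE and 2.30 FPKM in WT cells (log2 fold change −0.44). The corepressors NCOR1 (12.3 against 15.8 FPKM) and CTBP2 (27.6 against 33.3 FPKM) had log2 fold changes of −0.34 and −0.26, and CDKN1A (105.3 against 126.7 FPKM) had −0.27. Each of these 4 calls was lost in a separate fit of that time (adjusted p between 0.0684 and 0.0848, limma) and without WT 6 h replicate 1 or replicate 2 (0.0565 to 0.160). CTBP2 also lost it without ΔCRE 6 h replicate 1 (0.0860), and MAML2, NCOR1 and CDKN1A without ΔCRE 6 h replicate 2 (0.105, 0.0867 and 0.143).

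At 24 h, 2 of 52 were lower (3.85%, against 3.97% of all features) and 0 higher by limma's adjusted p (11 lower and 3 higher at an unadjusted p under 0.05), with a median of 0.00057. CTBP2 was 19.9 FPKM in ΔCRE and 26.4 FPKM in WT cells (log2 fold change −0.39), a call lost without WT 24 h replicate 1 (adjusted p = 0.0613, limma) and in a separate fit of that time (0.0631). DTX3L, a ubiquitin ligase of the Deltex family, was 5.58 against 7.70 FPKM (−0.40), a call lost on leaving out any 1 of the 4 libraries of 24 h (adjusted p between 0.0739 and 0.113, limma) and in the separate fit (0.0848). At 0 h 0 of 52 genes were called by limma (3 lower and 8 higher at an unadjusted p under 0.05), and for the difference of the genotype effects between 24 and 6 h 0 of 52 (3 lower and 3 higher).

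**Figure D3:**
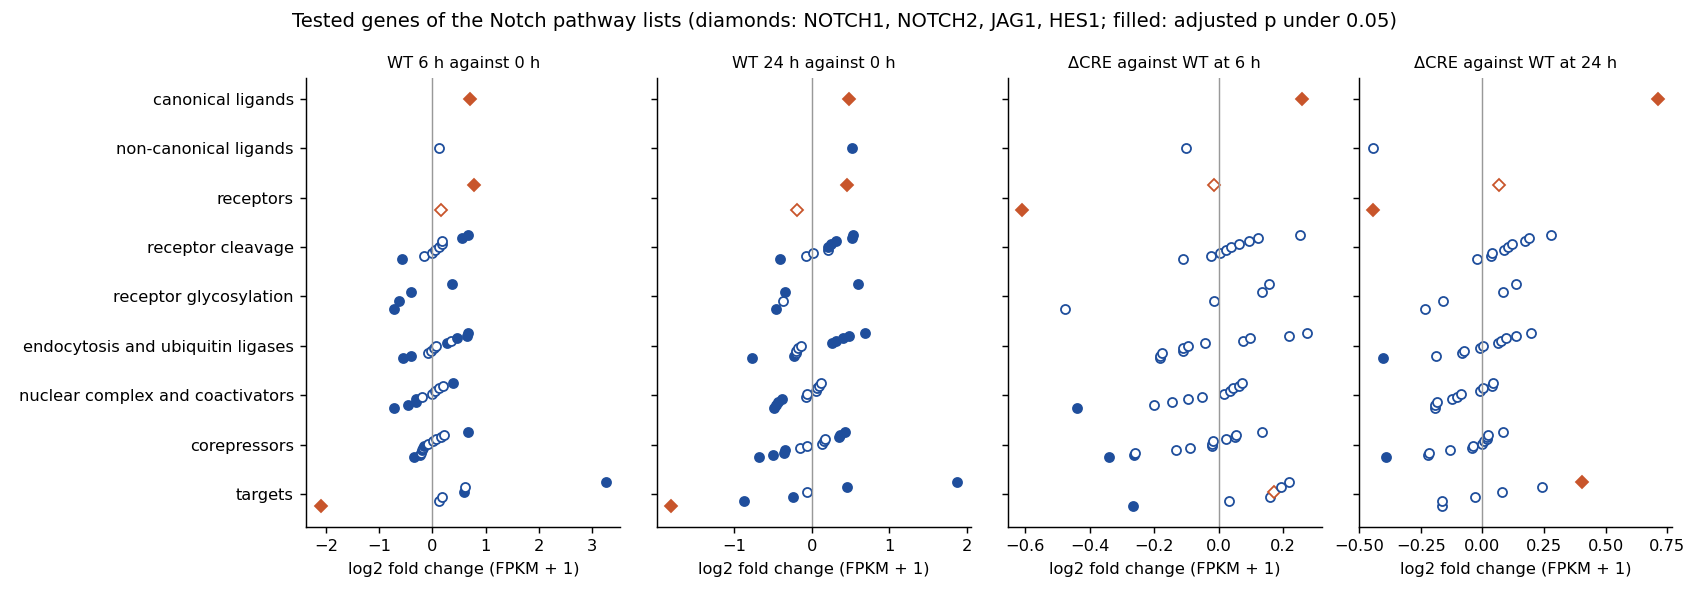
Log2 fold changes of FPKM + 1 (x axis, with its own scale for each comparison) of the tested pathway genes by list (rows) in 4 comparisons, with NOTCH1, NOTCH2, JAG1 and HES1 as orange diamonds, other genes as blue points, and filled symbols where limma's adjusted p was under 0.05. On stimulation of WT cells, HES1 and CDKN1A lie at opposite ends of the targets, and at 6 h between genotypes NOTCH1 lies furthest to the left at −0.61, while at 24 h JAG1 lies furthest to the right at 0.71.

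The features whose log2(FPKM + 1) followed each gene most closely over the 11 libraries were read by Pearson's r, as a description of 11 points that share their 6 groups. For NOTCH1 these were PLAT, NFATC2 and CDK9 (r = 0.976, 0.975 and 0.973). PLAT, tissue plasminogen activator, was 9.16, 44.6 and 24.5 FPKM in WT cells at 0, 6 and 24 h and 6.92, 11.9 and 11.6 FPKM in ΔCRE cells, and NFATC2, the calcium-regulated transcription factor NFAT1, was 2.11, 5.35 and 3.65 FPKM against 1.05, 2.56 and 2.43 FPKM. Both thus had the order of groups seen for NOTCH1, with WT 6 h highest and ΔCRE 0 h lowest.

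For JAG1 the closest were a feature that holds C9orf47 and S1PR3 (r = 0.977), PDLIM5 (0.970) and UCN2 (0.967). UCN2, a peptide hormone of the corticotropin-releasing family, was 5.90, 13.4 and 8.45 FPKM in WT cells and 9.12, 27.9 and 35.2 FPKM in ΔCRE cells, with the later peak in ΔCRE cells that JAG1 had. For HES1 they were FAM20C, TFAP2C and RAB30 (r = 0.988, 0.986 and 0.984). TFAP2C, the transcription factor AP-2γ, was 21.1, 8.15 and 10.5 FPKM in WT cells and 28.2, 9.68 and 11.8 FPKM in ΔCRE cells. For NOTCH2 they were GPR126, SBNO1 and KPNA1 (r between 0.970 and 0.974). For the weakly expressed genes they were PGD, GTPBP5 and LYPD3 for NOTCH3 (0.878 to 0.931), PPIC, ADCK4 and CREB3L4 for JAG2 (0.957 to 0.970), and C6orf57, LOC729970 and PFDN6 for HEY1 (0.881 to 0.903).

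In the library labelled ΔCRE 0 h replicate 1, 5 of the 7 genes lay outside the range of the other 11 libraries in FPKM as deposited. FPKM of this library summed to 1423335, against 566255 to 651080 in the 11. Relative to these sums, NOTCH1 lay below all 11 and HES1 within their range, while the other genes kept the places given below. The share of all features outside the range was not computed, so the count says nothing particular of these genes. JAG2 was 6.24 FPKM, 7.34 times the highest of the 11, NOTCH3 was 1.59 FPKM, 3.72 times the highest, and HES1 was 48.0 FPKM, 1.37 times the highest. NOTCH2 at 3.65 FPKM and JAG1 at 10.5 FPKM lay below all 11, at 0.239 and 0.254 times their means. NOTCH1 at 4.58 FPKM and HEY1 at 0.649 FPKM were within the range. Of other pathway genes, named after their values were seen, LFNG was 44.4 FPKM there against 2.37 to 7.53 FPKM in the 11, and NRARP, a feedback inhibitor of Notch, 9.62 against 0.338 to 0.881 FPKM. The epithelial marker EPCAM was 1139 FPKM there and 2.02 to 3.38 FPKM in the 11, and REG1A, a gene of gut epithelium, was 4722 FPKM there and listed at 0 in the 11. What these markers have to do with the Notch genes in that library was not tested.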

How the data were processed

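Total RNA of WT and ΔCRE MDA-MB-231 cells was sequenced by the authors from stranded mRNA libraries, mapped to hg19 with TopHat and quantified with Cufflinks. The authors deposited FPKM values of 24331 features in 12 columns, 1 per library. The annotation and any scaling between libraries are not given in the sources used here. The names of 2 columns hold a digit where the labels hold a letter and were matched by their header group. FPKM keep no read numbers. The steps of values under 0.3 FPKM gave a depth relative to WT 0 h replicate 1 of 0.730 to 1.19, and the absolute depth is unknown, so no counting interval was computed.

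From the deposited FPKM, log2(FPKM + 1) was tested with limma 3.58.1 in R 4.3.3 (eBayes with a trend, two-sided) in 1 model of 6 groups and 11 libraries, without ΔCRE 0 h replicate 1, whose profile stands apart. ΔCRE 0 h then has 1 library, assumed to vary like the others. With 2 libraries a group and an unknown number of clones, p-values measure the spread between these libraries, and a clone cannot be told apart from the deletion. The script was tested on simulated data. Named are the 7 genes, the 5 highest and 5 lowest called pathway genes in each of 4 comparisons (WT 6 h and 24 h against 0 h, ΔCRE against WT at 6 h and 24 h), the 3 features most alike to each gene, and markers. The genes, lists and tests were chosen with earlier results of these data known. The neighbours within 5 Mb were examined after the values were seen. Alternatives were another pseudocount, no filter or a stricter one, TPM, quantile normalization, a replicate block, no trend, all 12 libraries, a separate fit of the groups compared and leaving out each library. Symbols with several features were read from the highest, and 405 features with several symbols were left as deposited. Gene positions come from GENCODE for GRCh37, the build of hg19. Other calculations used Python 3.11.15 with pandas 2.3.3. Cuffdiff was not run here.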

Additional observations from a re-analysis of the deposited data

Results flagged for a closer look

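Of the 7 genes, 3 stood above every other library in FPKM as deposited in ΔCRE 0 h replicate 1, a library used only in the alternative fit of all 12 libraries: NOTCH3 at 1.59 FPKM, JAG2 at 6.24 FPKM and HES1 at 48.0 FPKM. FPKM of this library summed to 1423335, against 566255 to 651080 in the others. Relative to these sums, NOTCH3 and JAG2 stayed above every other library, whereas HES1 lay below the other libraries of 0 h. The share of all features above every other library there was not computed. The same library held 9905 FPKM of the 7 markers of gut epithelium, and the part of other cells in these values was not tested. The groups of 2 libraries are too small for a test of single outlying libraries.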

How the results depend on the processing

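The number of the 4 tested genes called was 3 at WT 6 h and 3 at WT 24 h against 0 h, 4 at WT 24 h against 6 h, 3 at ΔCRE 24 h against 6 h, and 2, 3 and 1 between genotypes at 6, 24 and 0 h. With all 12 libraries these counts were 1 at WT 24 h against 0 h and 0 in the last 5 of these comparisons, where NOTCH1 at 6 h had an adjusted p of 0.377 and JAG1 at 24 h of 1, and JAG1 and NOTCH2 between genotypes at 0 h reversed to log2 fold changes of −0.40 and −0.86. TPM left 1 call at WT 24 h against 6 h. A mean of at least 5 FPKM left 1 between genotypes at 6 h, as NOTCH1 was then not tested. A separate fit left 1 at 6 h, 1 at 24 h and 0 at 0 h. Leaving out 1 library gave 1 to 4 at WT 24 h against 6 h and, between genotypes, 1 to 2 at 6 h, 1 to 3 at 24 h and 0 to 1 at 0 h. NOTCH2 between genotypes ran from −0.050 to 0.022 at 6 h (reversed without WT 6 h replicate 2), from −0.027 to 0.16 at 24 h and from −0.013 to 0.17 for the difference of effects (both reversed without WT 24 h replicate 1). Over all features, 1107, 712 and 190 were called between genotypes at 6, 24 and 0 h, against 20, 17 and 17 with all 12 libraries and 364, 132 and 43 in separate fits. Leaving out 1 library gave 321 to 1097, 165 to 717 and 106 to 159, the lowest without WT 6 h replicate 1, WT 24 h replicate 1 and WT 0 h replicate 1. The difference of effects had 18 calls, with 0 in the fit of all 12 libraries, 11 under quantile normalization, 8 with no trend, 9 in the separate fit and 3 (without ΔCRE 24 h replicate 1) to 21 on leaving out 1 library. The comparisons of times had 4993, 6151, 5267 and 5586 calls, and 857, 1221, 582 and 845 with all 12 libraries. The deviations of same-numbered libraries had r between −0.068 and 0.20 over 10 pairs of groups, and whether these libraries share an effect was not tested. The replicate block gave 1805, 1407 and 655 features, 8 lower and 2 higher further pathway genes at 6 h and 5 and 2 at 24 h, and a call for NOTCH2 at WT 24 h against 0 h (adjusted p = 0.0213, limma). The causes of these shifts were not tested. Without ΔCRE 0 h replicate 2 there is no genotype value at 0 h. FPKM hold no counts, so the depth behind NOTCH3, JAG2 and HEY1, all under 1 FPKM on average, could not be turned into an error.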
